A study of Homo sapiens with 2 samples.

Results

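The genes described here are 8 that make, sense or remove retinoic acid: the receptor genes RXRA, RARA, RARB and RARG and the enzyme genes ALDH1A2, CYP26A1, CYP26B1 and DHRS3. The values given are those of the TET1-V5 ChIP peaks that overlapped the hg19 span of a gene, widened by 20 kb on each side, by at least 1 bp. That rule took 65 of the 46208 peaks in the authors' list, over 864 kb of sequence. The peaks were chosen by position alone, but the genes and spans were chosen with earlier results of these data known. Values set beside the rest of the list are therefore a description.

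The ChIP library was a V5 precipitation of day 7 cardiac progenitors made from H1 cells, a long-established human embryonic stem cell line. Its own TET1 gene had been fitted with a V5 tag, a short epitope that an antibody can pull down. It was set against 1 input library of day 7 cardiac progenitors, and each group held 1 library. Both groups shared the monolayer differentiation, in which WNT signalling was raised with 6 µM CHIR99021 up to day 2 and blocked with 5 µM IWP2 between days 3 and 5. The labels' protocols list no addition of retinoic acid, and they give the genotype of both libraries as wild type although the series describes a tagged line. A V5 ChIP of cells without the tag is not among the labels, so signal of the antibody alone cannot be told apart from TET1. The number of clones behind the tagged line is not given in the sources used here. A peak list holds no expression values, so the progenitor label was not checked against marker genes. The read depth is unknown, no value has a replicate behind it, and no p-value is given.

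Retinoic acid is made from vitamin A: retinol is oxidised to retinal, and ALDH1A2 oxidises retinal to retinoic acid. The acid binds receptors of the RAR family, which sit on DNA as pairs with an RXR receptor and switch target genes on when the ligand arrives. CYP26 enzymes hydroxylate retinoic acid and so clear it, and DHRS3 turns retinal back into retinol. In vertebrate embryos this pathway patterns the heart field and favours atrial over ventricular fate. TET1 oxidises methylated cytosine, and its CXXC domain binds DNA rich in CG dinucleotides.

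All 8 genes carried a peak across their start, the span end given by the strand and known here to 1 kb. These 8 peaks were 1940 to 8573 bp wide, with a median of 4637 bp, and the median score was 1064. The other 57 members had a median width of 2217 bp and a median score of 253. Scores are those the authors deposited, and they run upwards from 50. Values of 3100 or more are treated as 1 class, called the ceiling, because 2030 peaks of the list are tied at exactly 3100. A further 135 peaks scored above 3100, up to 3233.06, and no member was among them. Of 4 kb windows laid along the chromosomes, 8.20% were touched by a peak. Starts of other genes were not compared, since no hg19 annotation was used, so the count of 8 is not shown to set these genes apart.

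The peaks at the starts differed widely in score. RXRA and DHRS3 stood at the ceiling, at 3100 each. RARA had 1424 and CYP26B1 had 1261. RARG and CYP26A1 lay side by side at 866 and 859.8. ALDH1A2 followed with 449, and RARB was lowest with 268. In 6 of the 8 regions the peak at the start was the highest scoring of its region, which for RARB and ALDH1A2 was the sole peak. In RARA and RARG the highest peak lay inside the gene.

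**Figure D1:**
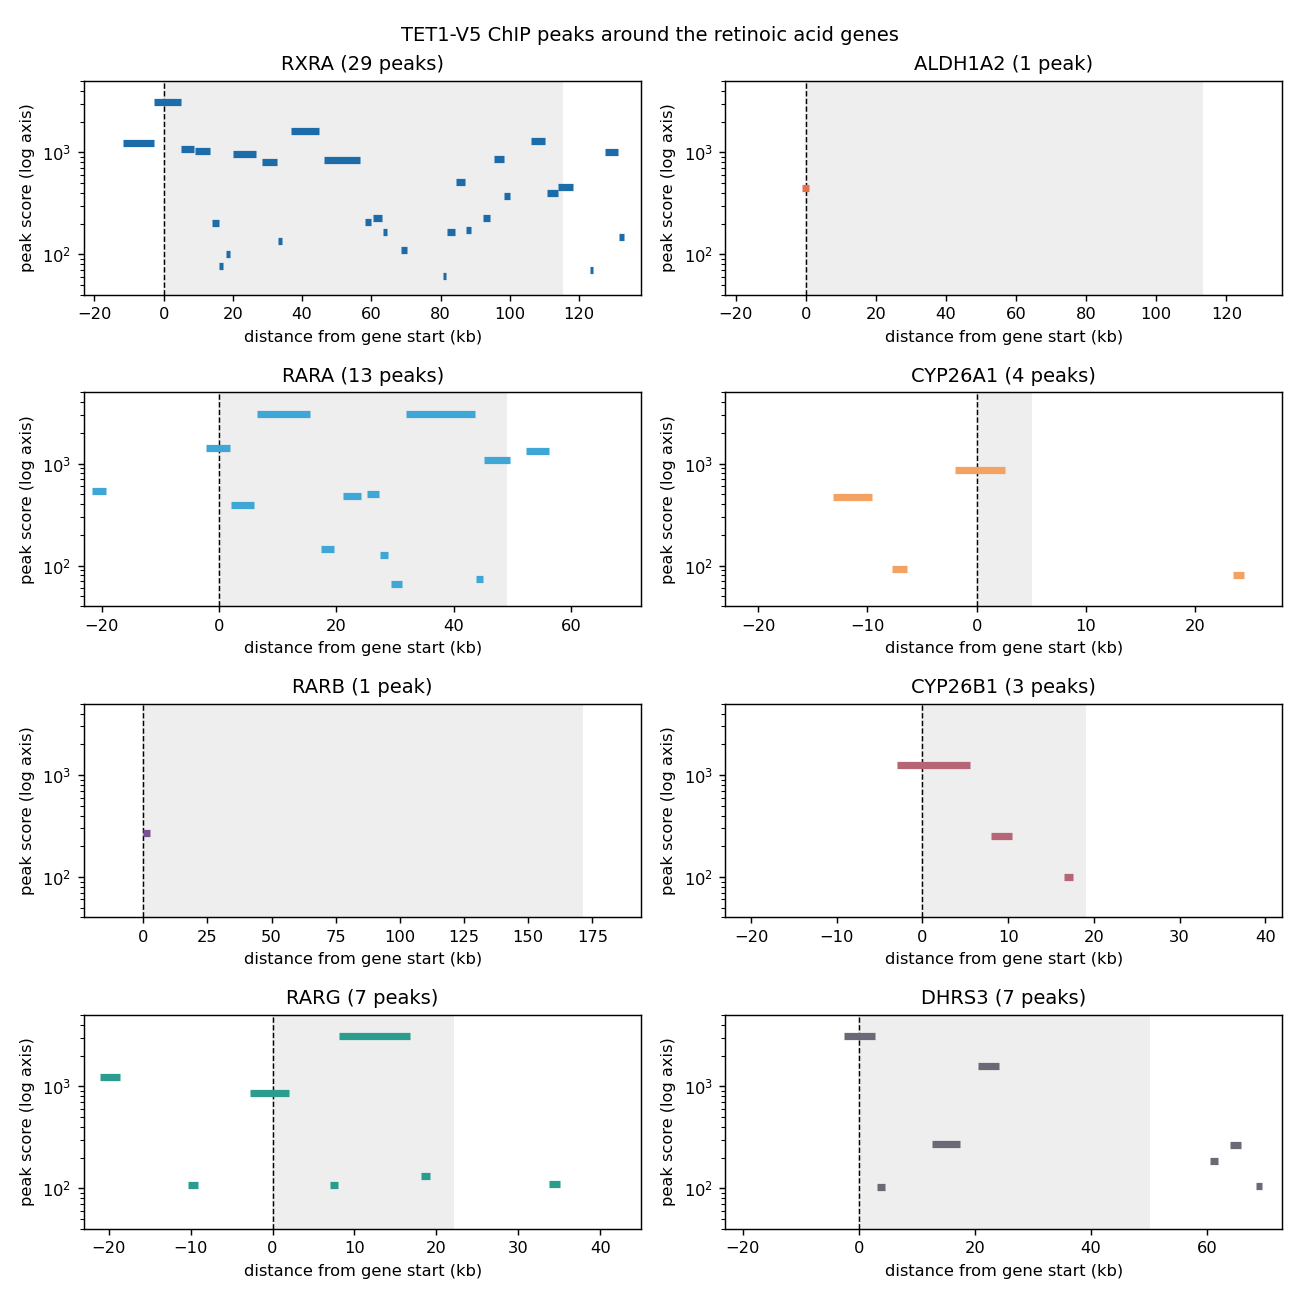
Peaks around each gene, with distance from the gene start in kb on the x axis (positive in the direction of transcription) and the authors' peak score on a log axis on the y axis. Each bar is 1 peak drawn to its width, the grey area is the gene span and the dashed line is the start. RXRA and RARA carry peaks from end to end, while RARB and ALDH1A2 have 1 peak each.

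The promoters listed for these genes were unlike in sequence. RefSeq promoters of GRCh38.p14, running from 250 bases before a start to 50 after it, were found for all 8 genes, with 18 entries in all. For each gene the entry whose distance to the gene's far end came nearest to the length of the hg19 span was used. RXRA had 65 CG dinucleotides in its 300 bases, a number reached by 0.0313% of the 35116 promoters in the table. ALDH1A2 had 41 and DHRS3 had 31. CYP26B1 had 19 and RARG had 14, and the median of the table was 14. RARA and CYP26A1 had 12 each. RARB had 7, a number reached by 63.2% of promoters. The number depended on the entry in every gene with more than 1. A second start of CYP26A1, 0.418 kb from the first, had 32. A second start of DHRS3, 1.42 kb from the first, had 13. Entries further off had 8 in RXRA, 19 and 22 in RARA, 33, 1 and 2 in RARB, 1 in ALDH1A2 and 5 in DHRS3.

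The richest and the poorest of the 8 entries used are shown as the 250 bases before the start, with each CG in capitals. RXRA is chr9:134326205-134326454 and RARB is chr3:25428013-25428262, both on the plus strand of GRCh38.p14. The stretch of RXRA holds 59 CG dinucleotides and that of RARB holds 7.
RXRA: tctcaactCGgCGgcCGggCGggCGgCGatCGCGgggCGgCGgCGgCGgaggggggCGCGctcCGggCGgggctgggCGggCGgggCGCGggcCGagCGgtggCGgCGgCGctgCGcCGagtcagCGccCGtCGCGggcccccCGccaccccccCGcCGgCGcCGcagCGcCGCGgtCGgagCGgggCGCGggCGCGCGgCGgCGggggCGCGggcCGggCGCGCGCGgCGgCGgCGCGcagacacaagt
RARB: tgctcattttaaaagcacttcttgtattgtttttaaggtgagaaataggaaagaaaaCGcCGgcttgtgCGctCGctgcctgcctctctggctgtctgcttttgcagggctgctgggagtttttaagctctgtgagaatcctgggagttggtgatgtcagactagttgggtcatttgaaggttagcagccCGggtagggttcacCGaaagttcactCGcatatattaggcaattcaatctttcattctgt

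RARB and CYP26A1 carry the letters of a retinoic acid response element in a listed promoter, which is why the sites are printed below. The letters searched were the hexamer AGGTCA, its variant GGTTCA and the further variant AGTTCA, repeated in the same direction in any pairing with 5 bases between, on both strands. They were chosen with the known elements of these genes in mind. The search matched 22 of the 35116 promoters (0.0626%) and 2 of the 18 entries of the 8 genes. With 2 bases between the repeats it matched 4 promoters of the table (0.0114%) and 0 of the 18. In RARB the repeat lies from -53 to -37 of the start. In CYP26A1 it lies from -90 to -74 of the second listed start, and there the hexamers read as AGTTCA on the opposite strand. The capitals mark the hexamers. RARB is chr3:25428204-25428233 and CYP26A1 is chr10:93073797-93073826, both on the plus strand of GRCh38.p14.
RARB: gggtagGGTTCAccgaaAGTTCActcgcat
CYP26A1: taaagaTGAACTttgggTGAACTaattgtc
The peaks are on hg19 and no coordinate was carried between builds. The RARB peak on hg19 holds every position that the element could take if the start lies in the kb that opens the span. The same holds for CYP26A1 if the second start lies as far from the first as in RefSeq. A match of letters is not shown to be a bound site.

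**Figure D2:**
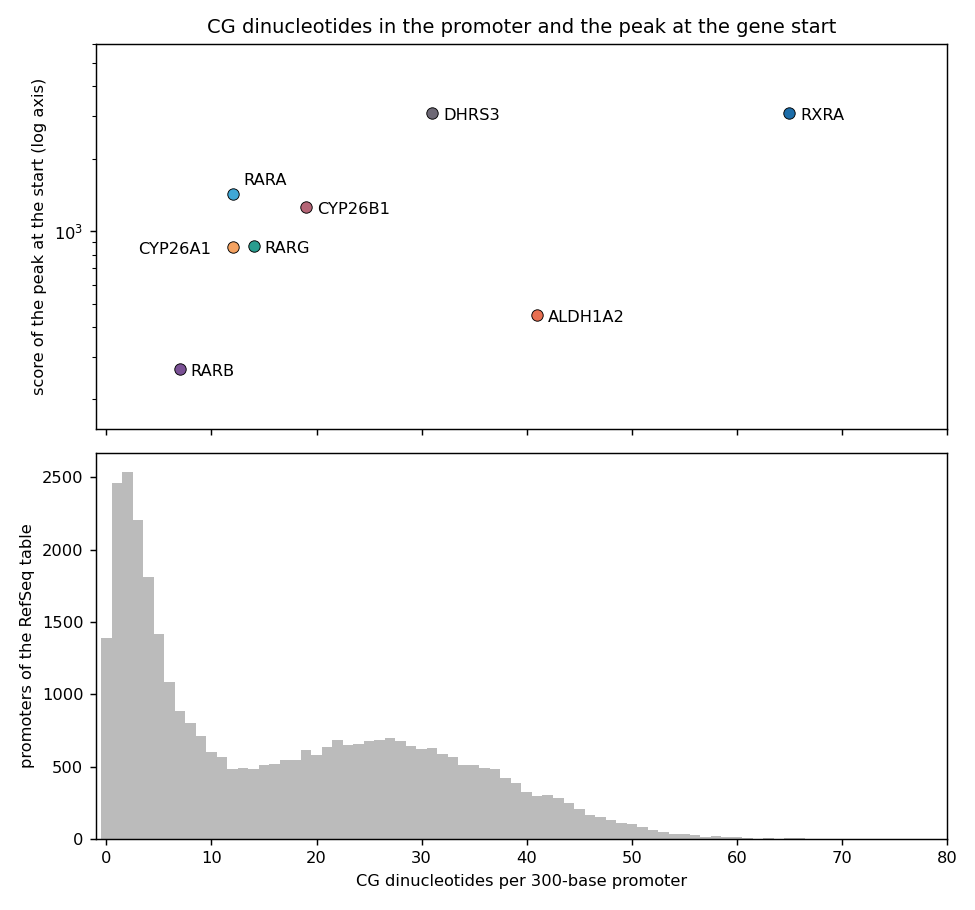
Upper panel, the number of CG dinucleotides in the 300-base promoter of each of the 8 genes on the x axis against the score of the peak at its start on a log axis. Lower panel, the number of promoters in the RefSeq table at each CG number; RXRA at 65 lies at the far right of it and RARB at 7 near its left side.

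CG number and score did not run in 1 order over the 8 genes. The poorest promoter, RARB, had the lowest score and the richest, RXRA, was at the ceiling. ALDH1A2, second in CG number, had the second lowest score, 449, and the narrowest of the 8 peaks at 1940 bp. RARA, with 12 CG dinucleotides, had 1424. With the second entries named above, CYP26A1 would stand at 32 and DHRS3 at 13, which changes their place in the order of CG number. Entries of RXRA at 8, RARA at 19 and 22, RARB at 33, ALDH1A2 at 1 and DHRS3 at 5 would change it too. These lie outside the peaks at the starts used. No correlation is given over 8 genes of 1 library.

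RXRA, a partner with which the RAR receptors pair on DNA, held 29 of the 65 peaks, which is 44.6%. Its span lies on hg19 chromosome 9 from 137218 to 137333 kb, on the plus strand, and 67.0% of the span was covered by peaks. The region of 155 kb had 18.7 peaks per 100 kb (95% Poisson interval 12.5 to 26.9). In the 1 Mb on each side the density was 10.1 per 100 kb, below that interval. Over the autosomes and X, 0.217% of 100 kb windows reached the RXRA density. Such an interval holds counting error alone, as if neighbouring peaks were independent.

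The highest score at RXRA stood at its start, and wide peaks continued upstream of it and through the first part of the gene. The peak across the start ran from 137215336 to 137222871 (7.54 kb, score 3100). Directly upstream lay a peak of 8.87 kb with a score of 1239.5, ending 2.8 kb before the start. Downstream of the start, peaks of 3.91 and 4.39 kb had scores of 1085 and 1036. The next strong ones were a peak of 6.81 kb at 19.9 to 26.7 kb into the gene (score 966), a peak of 8.08 kb at 36.9 to 45 kb (1605) and a peak of 10.3 kb at 46.4 to 56.7 kb (846). The last of these is 1 of 134 peaks of the list, or 0.290%, that are 10 kb or wider.

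Beyond that point the RXRA peaks were narrower. Leaving out the peak across the start, the 10 further peaks with midpoints in the first 57.5 kb of the gene had a median width of 4078 bp and a median score of 825. The 14 others that overlapped the span, the last of which reached past its end, had 2024 bp and 227. The lowest score of the region, 61.05, belonged to a peak of 856 bp at 80.8 to 81.7 kb. Higher scores were found again near the 3' end, with 864 at 95.5 to 98.4 kb and 1294 at 106.1 to 110.1 kb. Past the gene end, 3 peaks had scores of 70.3, 1015 and 149. These are single values of 1 library, and the difference along the gene was not tested.

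Many of the RXRA peaks were separated by very short gaps. Of the 28 gaps between its neighbouring peaks, 17 were up to 1 kb long, and the shortest was 19 bp. In the whole list 11.9% of gaps were that short. Joined across such gaps, 8 peaks formed a stretch of 38.4 kb, from 11.7 kb upstream of the RXRA start to 26.7 kb inside the gene. It ranked number 5 in length among the 40723 stretches of the list. With gaps of up to 500 bp it was 28.8 kb and ranked number 9.

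RARA, a receptor that binds retinoic acid itself, held 13 peaks. Its span is on hg19 chromosome 17 from 38465 to 38514 kb, plus strand, and 85.8% of it was covered, the highest of the 8 spans. Density was 14.6 peaks per 100 kb (7.78 to 25) in the region and 4.15 in the 1 Mb on each side. Of 100 kb windows, 0.763% reached that density.

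Both ceiling peaks of RARA lay inside the gene and not at its start. One ran from 38471409 to 38480492, 6.4 to 15.5 kb after the start (9.08 kb wide). The other ran from 38496925 to 38508620, 31.9 to 43.6 kb after it (11.7 kb wide, the widest of the 65). The peak across the start was 4.11 kb wide with a score of 1424. Beside these strong peaks lay 4 with scores of 145, 126, 66.51 and 74.27 and 3 with scores of 394, 486 and 502. At the 3' end a peak of 4.43 kb scored 1080.03. Past it, 52.4 to 56.3 kb from the start, a peak of 3.93 kb scored 1337. The next protein-coding gene on that side in the RefSeq table is GJD3, and the peak was not assigned to a gene.

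Joined across gaps of up to 1 kb, RARA formed stretches of 24.4 kb (number 35 in the list) and 17.7 kb (number 85). With gaps of up to 2 kb they became a single stretch of 51.9 kb with 11 peaks, from 2.2 kb upstream of the start to 49.7 kb after it. It ranked number 3 of 37617, ahead of the RXRA stretch of 45.8 kb, which ranked number 6. Which of these receptor genes had the longer stretch therefore depended on the gap allowed.

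RARG, the third RAR, held 7 peaks in a shorter span on hg19 chromosome 12 from 53604 to 53626 kb, minus strand. Its ceiling peak, from 53609209 to 53617923 (8.71 kb), lay 8.1 to 16.8 kb into the gene. The peak across the start was 4.66 kb wide with a score of 866. Of the remaining peaks, 4 scored between 108 and 133. The fifth, 18.6 to 21.1 kb upstream, scored 1221. Density was 11.3 peaks per 100 kb (4.54 to 23.3), and the 5.30 in the 1 Mb on each side lay inside that interval. Of 100 kb windows, 1.85% reached the RARG density.

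RARB differed from the other receptors in having 1 peak. RARB is a receptor that is itself switched on by retinoic acid. Its span is on hg19 chromosome 3 from 25469 to 25640 kb, plus strand, and the peak lay from 25468817 to 25471596 (2780 bp, score 268). Of all peaks in the list, 40.1% scored at least as high. Peaks covered 1.52% of the span. The nearest other peak was 596 kb away upstream and 233 kb away downstream. Of all gaps between neighbouring peaks, 1.55% and 5.61% were at least that long. The longest stretch without a peak inside the region was 188 kb, and 7.30% of gaps reached that length.

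Low density extended around the RARB span as well. The region had 0.474 peaks per 100 kb (0.0120 to 2.64), and the 1 Mb on each side had 0.450. With 1 peak a region says little by itself, since 50.7% of 100 kb windows reached its density and the other 49.3% held no peak midpoint at all. RefSeq gives RARB a length of 769 kb, so the span of 171 kb holds the part from 1 of its 4 listed starts onwards. Its outermost start lies 599 kb upstream, so much of the 1 Mb counted on that side is RARB itself.

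ALDH1A2, the enzyme that makes retinoic acid in the mesoderm of early mouse embryos, also had 1 peak. Its span is on hg19 chromosome 15 from 58245 to 58358 kb, minus strand. The peak ran from 58357047 to 58358986, 1.0 kb to each side of the start (1940 bp, score 449). The remaining length of the gene had no peak, and the nearest peak downstream was 357 kb away. Upstream the nearest was 58.9 kb away. Density was 0.654 peaks per 100 kb (0.0165 to 3.64), and the 0.9 in the 1 Mb on each side lay inside that interval. That density was reached by 50.7% of 100 kb windows, which, as for RARB, is every window with a peak midpoint. A long antisense gene, ALDH1A2-AS1, starts beside ALDH1A2 in RefSeq, and the peak was not divided between them.

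The enzymes that clear retinoic acid had few peaks, with the strongest at the start. CYP26A1 lies on hg19 chromosome 10 from 94833 to 94838 kb, plus strand, and the peak across its start ran from 94830987 to 94835603 (4.62 kb, score 859.8). A peak of 3.49 kb lay 9.6 to 13.1 kb upstream with a score of 467, and another of 1.32 kb lay 6.4 to 7.7 kb upstream with 93.18. The gene next to CYP26A1 on that side in RefSeq is CYP26C1, which encodes a further enzyme of the family. These upstream peaks were not assigned to either gene. The fourth, 23.5 kb downstream of the start, scored 79.94. Density was 8.89 peaks per 100 kb (2.42 to 22.8) against 1.40 in the 1 Mb on each side, which lay below the interval. Of 100 kb windows, 3.85% reached it.

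CYP26B1, on hg19 chromosome 2 from 72356 to 72375 kb on the minus strand, had a single wide peak at its start. It ran from 72369448 to 72378020 (8.57 kb, score 1261), and 0.522% of all peaks were at least as wide. Inside the gene the scores were 253 at 8.0 to 10.5 kb and 99.8 at 16.5 to 17.6 kb. Density was 5.08 per 100 kb (1.05 to 14.9), and the 1.95 in the 1 Mb on each side lay inside that interval. Of 100 kb windows, 7.95% reached the CYP26B1 density.

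DHRS3, the reductase that takes retinal out of the path to retinoic acid, held 7 peaks on hg19 chromosome 1, where its span runs from 12628 to 12678 kb on the minus strand. The peak across the start, from 12675208 to 12680519 (5.31 kb), was at the ceiling. The next highest, 1567, lay 20.6 to 24.2 kb into the gene and was 3.62 kb wide. Between them were peaks with scores of 104 and 271, the second of them 4.68 kb wide. Then 36.3 kb without a peak followed, before 3 peaks past the gene end with scores of 186, 263 and 105. Density was 7.78 per 100 kb (3.13 to 16.0), and the 3.50 in the 1 Mb on each side lay inside that interval. Of 100 kb windows, 4.92% reached the DHRS3 density.

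**Figure D3:**
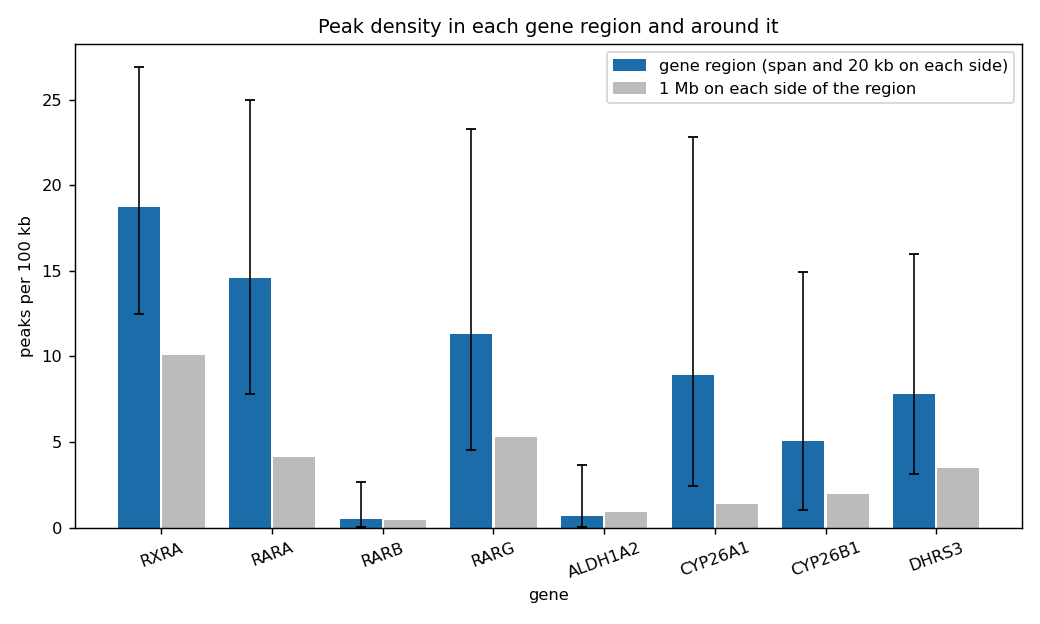
Peaks per 100 kb in each gene region (blue bars, the span and 20 kb on each side) and in the 1 Mb on each side of the region (grey bars). The error bars are exact 95% Poisson intervals; in RXRA, RARA and CYP26A1 the grey bar lies below the interval, and in the other 5 genes it lies inside it.

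Set beside the rest of the list, the 65 peaks held a larger share of wide peaks and a smaller share of low scores, and in both cases the value of the rest lay outside the counting interval. With 1 library there was no test of these differences. The intervals treat the 65 peaks as independent, but the peaks come from 8 regions. Of the 57 gaps between neighbouring members, 26 were up to 1 kb long. Of the 65 peaks, 10 were 5 kb or wider, or 15.4% (exact Clopper-Pearson 95% interval 7.63% to 26.5%), against 3.18% of the 46142 other peaks on human chromosomes and 3.20% of the whole list. RXRA held 5 of the 10 and RARA 2, and RARG, CYP26B1 and DHRS3 held 1 each. Scores below 100 were found in 9 of the 65, or 13.8% (6.53% to 24.7%), against 32.9% of the others and 32.9% of the whole list. The median width was 2490 bp (95% interval 1832 to 3491) against 1530 bp. The median score was 373 (201 to 511) against 172.

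For the share at the score ceiling, the value of the rest lay inside the counting interval. It was 5 of 65, or 7.69% (2.54% to 17%), against 4.68% of the others and 4.69% of the whole list. Scores of 1000 or more made up 26.2% (16.0% to 38.5%) against 18.6% of the others and 18.6% of the whole list, also within the interval. Without the RXRA region, 36 peaks remained, of which 13.9% were 5 kb or wider (4.67% to 29.5%) and 13.9% scored below 100 (4.67% to 29.5%). The median width of these 36 was 2429 bp (1424 to 3927) and their median score was 332 (133 to 859.8). Both intervals held the median of the rest, 1530 bp and 172. The medians themselves stayed near the 2490 bp and 373 of all 65 peaks, and the intervals were wider with fewer peaks. The receptors and the enzymes had overlapping intervals for the ceiling, 4 of 50 (2.22% to 19.2%) against 1 of 15 (0.169% to 31.9%).

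**Figure D4:**
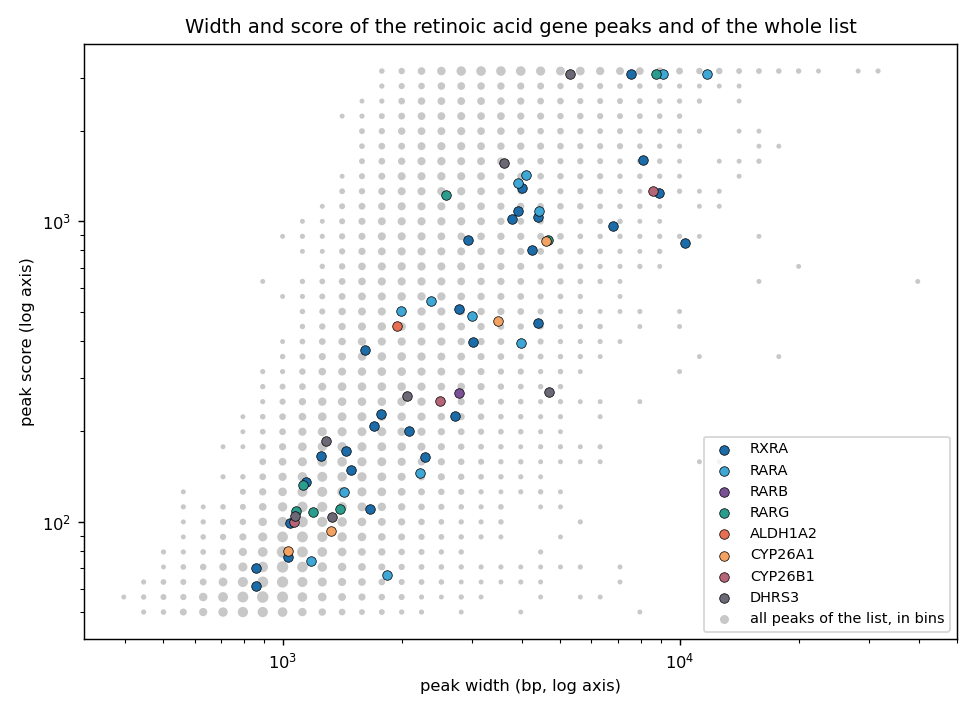
Peak width in bp on the x axis against the authors' score on the y axis, both on log axes. Coloured points are the 65 peaks of the 8 genes and grey points are all peaks of the list in bins, with larger points for fuller bins; the 5 coloured points in the top row are the ceiling peaks of DHRS3, RXRA, RARG and RARA.

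Peaks covered 24.8% of the 864 kb of the 8 regions, against 2.99% of the chromosomes between their outermost peaks. Without RXRA the share was 16.3%. It ranged from 63.2% at RXRA and 55.7% at RARA, through 31.6% at RARG, 23.3% at CYP26A1, 21.5% at DHRS3 and 20.6% at CYP26B1, to 1.32% at RARB and 1.27% at ALDH1A2. The 6 genes from RXRA to CYP26B1 had densities above 5 peaks per 100 kb, the level that 90% of windows do not pass. RARB and ALDH1A2 did not. Only in RXRA and RARA did the whole counting interval lie above 5, and CYP26B1 stood at 5.08 with 3 peaks.

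At the edge of the rule, the peak taken in by the smallest overlap lay upstream of RARA, with 743 bp inside the region and a score of 541. The next, upstream of RARG, had 1439 bp inside. The nearest peaks left out lay 1.47 kb (score 62.28) and 5.09 kb (165) beyond the RXRA region and 5.53 kb (1441) beyond that of DHRS3. Further genes of the pathway, among them RXRB, RXRG, ALDH1A1, ALDH1A3, RDH10, CRABP1, CRABP2 and STRA6, were not analysed here because their hg19 positions were not at hand.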

How the data were processed

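The authors' deposited file is a peak list with a score for each peak. Per the submitters' processing notes, reads were aligned with BWA 0.7.17 on hg19. Per the peak names, MACS made the calls. Its version is not given in the sources used here, nor are its settings. The unit of the score is not stated, and scores were used only within this list. The 65 members, the gene spans and the lists were chosen with earlier results of these data known. Starts were taken from spans given to 1 kb and from the strand in RefSeq. All genes of the rule are named; peaks are named where they touch a start, are at the ceiling, or are the widest or lowest of a region, and some further ones were named after their values were seen. Windows were tiled from position 1 and counted peak midpoints. Surroundings counted midpoints, whereas regions counted any overlap. RefSeq promoters and gene neighbours are of GRCh38.p14 and were not joined to peaks by coordinate. Intervals are exact, at 95%, and cover counting error only. Functions were tested on simulated peaks. Python 3.11.15, pandas 2.3.3, numpy 2.4.6, scipy 1.17.1 and matplotlib 3.10.9 were used. Alternatives were score thresholds, other flanks, joining, the midpoint rule and other windows.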

Additional observations from a re-analysis of the deposited data

How the results depend on the processing

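Of 44 alternative values for the summaries, 32 stayed within 1.5 times the value or within its counting interval, and 12 moved. Of 48 alternative values for single genes, 16 moved. A higher threshold removes low scores by construction. The upper 50% of the list by score kept 42 of the peaks (median width 3920.5 bp, median score 853). The upper 25% left 23, with 15.6% of the regions covered, 21.7% at the ceiling, a median width of 4617 bp and a median score of 1239.5; RARB and ALDH1A2 had 0 peaks there. Joining across gaps of up to 1 kb gave 39 stretches, 12 at RXRA in place of 29 peaks and 6 at RARA in place of 13. Without flanks, CYP26A1 had 1 peak in place of 4, and RARG and DHRS3 had 4 each in place of 7. Scores of 1000 or more, in place of the ceiling, made up 26.2%. Leaving out RXRA, chosen after seeing the data, gave 36 peaks and 16.3% covered. The 6 genes above the window level kept their number under every window tried. All 8 starts had a peak across them, so allowing a wider distance could not change that number. A score threshold could, and the upper 25% left RARB and ALDH1A2 without a peak. No paired analysis was possible because the ChIP and the input are 1 library each.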

Other observations

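RefSeq lists 10 further starts for these genes beside the ones used above. Their distances from the first start, taken within GRCh38.p14, were set beside the distances of the hg19 peaks from the span start. No coordinate was carried over, and the peaks were not assigned to these starts. At 6 of the 10 distances there was a peak. For CYP26A1 at 0.418 kb and DHRS3 at 1.42 kb it was the peak across the first start. The same count was not made for other genes, so it is not shown to set these apart. RARA has further starts 9.06 and 33.0 kb after the first, and its ceiling peaks ran from 6.4 to 15.5 kb and from 31.9 to 43.6 kb. RXRA has one at 52.8 kb, and its peak of 10.3 kb ran from 46.4 to 56.7 kb. DHRS3 has starts at 1.42 and 21.6 kb, and its peaks at the ceiling and at 1567 ran from -2.5 to 2.8 kb and from 20.6 to 24.2 kb. The second start of CYP26A1, at 0.418 kb, fell within the peak across the first.

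No peak lay at the further start of ALDH1A2, 51.7 kb into the gene, nor at those of RARB 30.0 kb after and 87.5 kb before the start used. The outermost RARB start lies 599 kb upstream in RefSeq, and the nearest peak upstream of RARB, 596 kb away, was 2330 bp wide with a score of 264. The far edge of that peak came within 1 kb of the RefSeq distance. Peaks covered 67.0% of the RXRA span and 85.8% of the RARA span, so a peak at a given distance there is the usual case. They covered 24.8% of the DHRS3 span, where the start at 1.42 kb shared the peak across the first.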
